A study of Homo sapiens with 8 samples.

Results

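The genes that make microRNAs (miRNAs) and carry out their silencing were followed in SAS cells, a cell line established from a human squamous cell carcinoma of the tongue, after transfection with 1 of 3 miRNA mimics. The set held 10 genes, which are DROSHA, DGCR8, XPO5, DICER1, TARBP2, AGO1, AGO2, TNRC6A, TNRC6B and TNRC6C. They were chosen by name from the array's own gene annotation, which gave 14 of the 58201 gene probes and 10 of the 43317 gene names. The 4 groups received 25 nM of RNA, either a negative control (NC) or the mimic of miR-874-3p, of miR-210-3p or of miR-629-3p, each delivered with DharmaFECT 1, and each group had 2 arrays. All groups shared the same line, which the study describes as SAS/GFP cells (SAS cells with a GFP vector) and the labels as SAS cells in medium with puromycin. The labels give 48 h from transfection to RNA extraction and the study 24 h. The mimics came from one supplier and the NC from another, so the NC is a different product as well as a different sequence. The arrays do not measure the mimics, and uptake was not analysed here. Nothing in the labels says whether the 2 arrays of a group came from separate cultures, so p-values measure the spread between these arrays, which may be technical.

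A miRNA gene is transcribed into a long primary transcript. In the nucleus DROSHA, an RNase III enzyme, and its RNA-binding partner DGCR8 cut a hairpin out of it, and exportin-5 (XPO5) carries the hairpin to the cytoplasm. There DICER1, with its partner TARBP2, cuts off the loop to leave a short duplex. An Argonaute protein (AGO1 to AGO4) keeps 1 strand and pairs it with messenger RNAs through the seed at the 5′ end of the miRNA. Proteins of the TNRC6 (GW182) family bind Argonaute and recruit the enzymes that shorten poly(A) tails and remove caps. A mimic is supplied as a ready duplex, so it enters at the Argonaute step and needs neither DROSHA nor DICER1.

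The 3 mature sequences are shown because they are what set the groups apart. They were taken from RefSeq (GRCh38.p14), run 5′ to 3′, and have the seed (bases 2 to 8) in capitals.
miR-629-3p: gUUCUCCCaacguaagcccagc
miR-210-3p: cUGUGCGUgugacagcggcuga
miR-874-3p: cUGCCCUGgcccgagggaccga
No seed was shared between them. In the genome (GRCh38.p14), miR-629-3p lies at chr15:70079387-70079408 on the minus strand, within the span of TLE3. miR-210-3p lies at chr11:568112-568133 on the minus strand, within the noncoding gene MIR210HG. miR-874-3p lies at chr5:137647582-137647603 on the minus strand, within the span of KLHL3. The mRNA letters that pair with the seeds, searched in the probe sequences as printed on the array (the sense strand), are GGGAGAA for miR-629-3p, ACGCACA for miR-210-3p and CAGGGCA for miR-874-3p. None of them was found in the 60 bases of any of the 14 probes, where 0 matches were counted for each miRNA. Over all 58201 gene probes the shares were 0.747%, 0.131% and 0.387%. The rest of the transcripts was not searched.

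RNA was labelled in 1 colour and hybridised to Agilent SurePrint G3 Human GE v3 arrays. A level below is the log2 of the background-subtracted signal minus the array's 75th percentile over gene probes, so that 0 is the 75th percentile of the array. Levels are compared between groups for 1 probe and not between probes, since probes differ in how well they bind. All 8 arrays lay on 1 slide, where row 1 held miR-629-3p and miR-210-3p and row 2 held miR-874-3p and NC. Between 24559 and 29008 probes were well above background on an array (42.2% to 49.8%), fewest with NC and most after miR-629-3p, and no spot was saturated. By slide row these shares were 46.6% to 49.8% in row 1 and 42.2% to 46.8% in row 2. Spots flagged as outliers numbered 87 to 162 per array in row 1 and 297 to 346 in row 2. Row and group cannot be told apart in these values. A probe was tested if, in 1 group or more, its signal on the 2 arrays was well above background, which left 27303 probes, among them all 14 probes of the 10 genes. Of these 14, 12 were well above background on all 8 arrays. The other 2 were the third probe of XPO5 (7 arrays) and the second of TNRC6C (2 arrays). All differences, standard errors (SE) and adjusted p-values come from limma fitted on all 8 arrays with Benjamini-Hochberg adjustment over the 27303 probes, and "called" means an adjusted p under 0.05.

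The labelled cell type was checked against markers of squamous epithelium. All 10 listed (KRT5, KRT14, KRT6A, KRT17, TP63, SFN, DSG3, PKP1, JUP and CDH1) were measured on all 8 arrays. Of the 10, 1 was called higher and 3 lower after miR-629-3p than with NC (8.85% and 6.38% of all tested probes). After miR-210-3p, 0 were called higher and 4 lower (3.72% and 1.92%). The median difference of the 10 was -0.46 and -0.57 in these comparisons and -0.04 after miR-874-3p. Over all tested probes the medians were 0.03, 0.06 and -0.00. Of 9 markers of other cell types, 6 were tested, and PDGFRB was called higher after miR-629-3p (0.47) and after miR-210-3p (0.50). ALB was well above background on 0 arrays, MLANA on 1 and CD3E on 4. The part of these shifts in the results for the 10 genes was not tested, and in bulk RNA fewer cells of a kind and less RNA per cell cannot be told apart.

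Placed on hg19, the build of the array's annotation, each probe covers 60 bases of its gene's transcript. The annotation does not say which exon or untranslated region that is. The DROSHA probe lies at chr5:31401473-31401532 and the DICER1 probe at chr14:95552615-95552674, both on the minus strand. The DGCR8 probe lies at chr22:20098916-20098975 and the TARBP2 probe at chr12:53899897-53899956, both on the plus strand. XPO5 has 3 probes on the minus strand, at chr6:43494424-43494483 (the brightest), chr6:43490583-43490642 and chr6:43491398-43491457. AGO1 has 2 on the plus strand, at chr1:36389840-36389899 (the brighter) and chr1:36386500-36386559. The AGO2 probe, on the minus strand of chromosome 8, was printed as 10 spots on each array. The TNRC6A probe lies at chr16:24835610-24835669 and the TNRC6B probe at chr22:40719222-40719281. TNRC6C has 2, at chr17:76101674-76101733 (the brighter) and chr17:76104813-76104872, and these last 4 are on the plus strand. Where a gene has several probes, the brightest stands for it and the others are given beside it.

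To see whether the machinery moved in any group, the 4 groups were first compared together. In limma's F test 1 of the 14 probes was called, that of DICER1 (adjusted p = 0.0151), while 23.3% of all tested probes were called. That call was lost when any 1 array of miR-629-3p or of miR-210-3p was left out. The share of all probes called in those fits is not shown. The loss therefore cannot be told apart from fewer calls over the whole array. In each of the 3 comparisons with NC, 0 of the 14 were called. The shares of all probes called were 8.85% higher and 6.38% lower after miR-629-3p, 3.72% higher and 1.92% lower after miR-210-3p, and 0.19% higher and 0.161% lower after miR-874-3p. The second probe of TNRC6C was not well above background in NC, so the counts that follow are over the other 13. Each of those was well above background on at least 1 array of each group compared. Before adjustment, 2 of the 13 had a limma p under 0.05 after miR-629-3p (32.7% of all probes), 2 after miR-210-3p (25.6%) and 2 after miR-874-3p (15.7%). The t-test named in the study's methods gave 4 (26.2% of all probes), 2 (22.1%) and 1 (8.73%) at that threshold and 0 after adjustment. The arrays of a mimic did not overlap those of NC in 11, 9 and 4 of the 13, beside 65%, 61.2% and 42.9% of all probes.

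The sizes were small. Over the 10 genes the median difference from NC was 0.03 after miR-629-3p, 0.07 after miR-210-3p and 0.04 after miR-874-3p, beside 0.03, 0.06 and -0.00 over all tested probes. Of the 30 differences from NC (10 genes in 3 comparisons), 27 had a 95% confidence interval that lay wholly within 1 log2 unit (2-fold) of 0, and 24 intervals held 0. The 3 wider ones all belonged to XPO5. For the other 9 genes no difference exceeded 0.38, and their intervals ran from -0.92 to 0.57. These intervals are unadjusted and rest on 2 arrays a group.

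**Figure D1:**
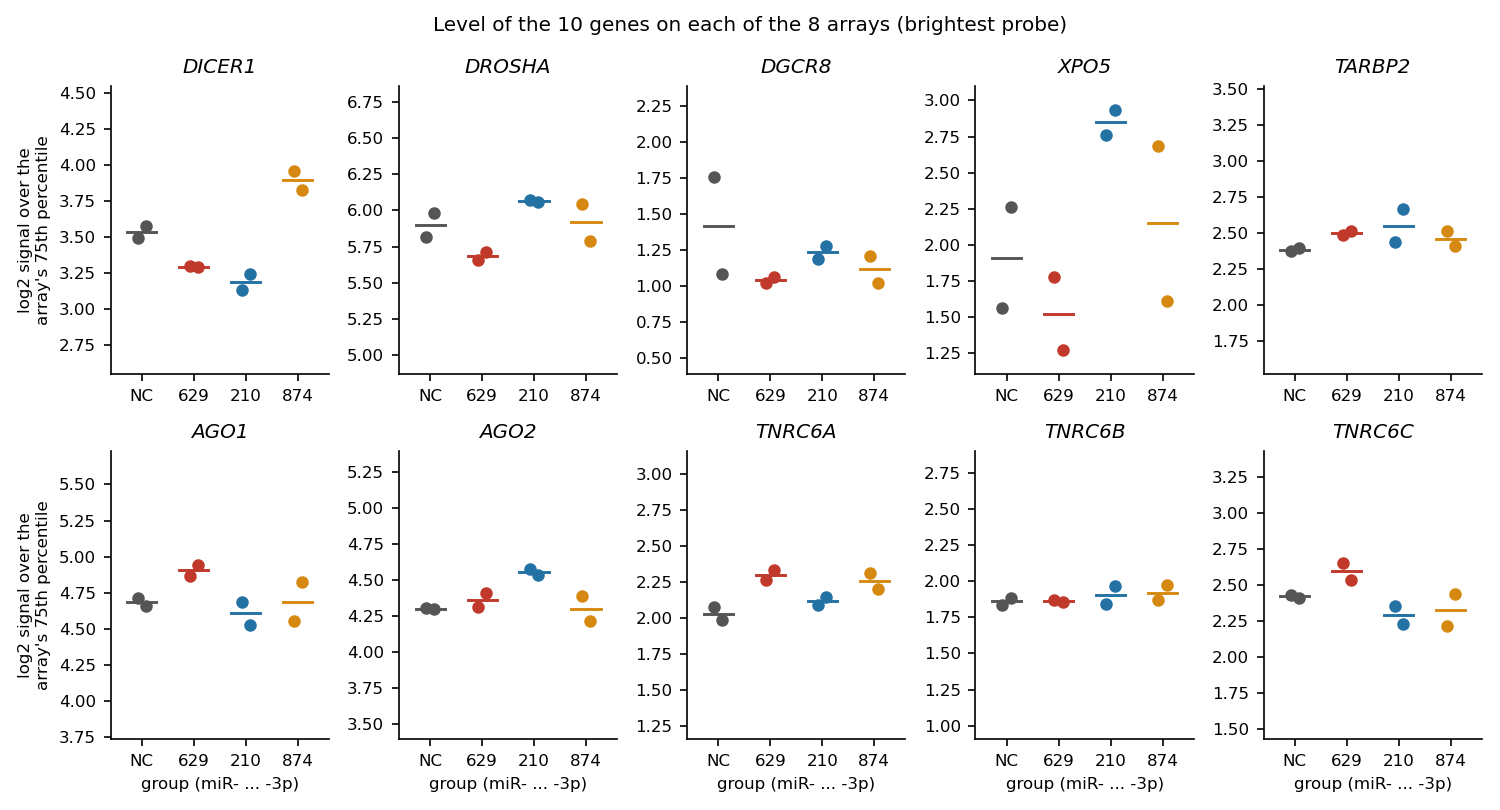
Level of each of the 10 genes (log2 signal over the array's 75th percentile, brightest probe) on the 8 arrays, as 2 points per group with the group mean as a bar. Every panel spans 2 log2 units, so distances can be compared between genes. DICER1 sits lower after miR-629-3p and miR-210-3p and higher after miR-874-3p than with NC, XPO5 is spread widest within groups, and TNRC6B stays between 1.84 and 1.97.

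**Figure D2:**
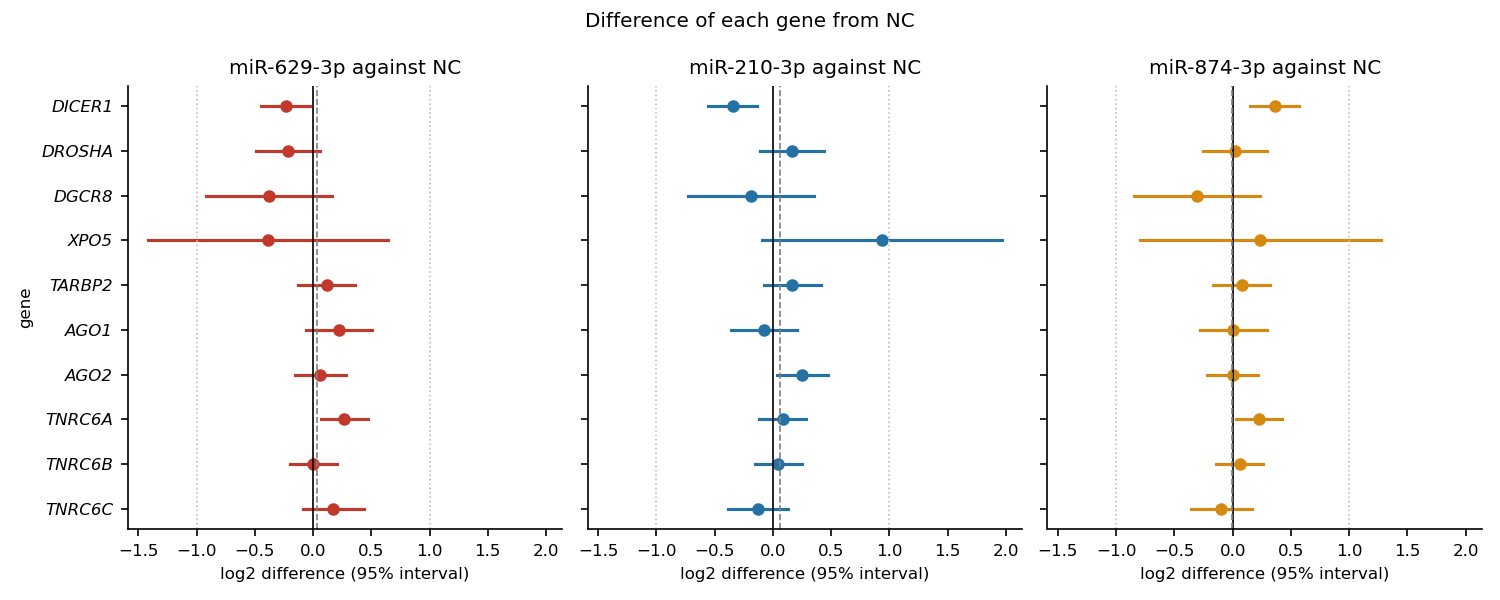
Difference of each gene from NC on the log2 scale (points) with its unadjusted 95% confidence interval from limma (lines), for the 3 mimics. The dashed line is the median over all tested probes and the dotted lines mark 1 log2 unit. Only the intervals of XPO5 pass a dotted line.

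DROSHA and DGCR8 form the nuclear complex that crops primary transcripts, and neither was called against NC. The DROSHA level was 5.82 and 5.98 on the NC arrays, 5.65 and 5.71 after miR-629-3p, 6.07 and 6.06 after miR-210-3p, and 6.04 and 5.79 after miR-874-3p. The miR-629-3p arrays were thus the lowest of the 8 and those of miR-210-3p the highest. The difference between these 2 groups, which lie in the same slide row, was -0.38 (SE 0.11, adjusted p = 0.0617). From NC, DROSHA differed by -0.22 (SE 0.11, adjusted p = 0.238) after miR-629-3p and by 0.17 (adjusted p = 0.402) after miR-210-3p. DGCR8 stood at 1.75 and 1.08 on the NC arrays, 1.02 and 1.06 after miR-629-3p, 1.19 and 1.28 after miR-210-3p, and 1.21 and 1.02 after miR-874-3p. The first NC array stood above all the others and the second lay among them. The DGCR8 difference from NC was -0.38 (SE 0.22, adjusted p = 0.288) after miR-629-3p and became -0.04 without NC replicate 1 and -0.71 without NC replicate 2.

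XPO5, the exporter of hairpin precursors, gave different pictures from different probes. The brightest probe read 1.56 and 2.26 on the NC arrays, 1.77 and 1.27 after miR-629-3p, 2.76 and 2.94 after miR-210-3p, and 2.68 and 1.61 after miR-874-3p. Both miR-210-3p arrays were above every other array, while the replicates of miR-874-3p lay more than 1 log2 unit apart. With miR-210-3p it exceeded NC by 0.94 (SE 0.42, 1.92-fold, adjusted p = 0.229), and after miR-629-3p it stood 1.33 below miR-210-3p (SE 0.42, adjusted p = 0.0747). The spread of this probe within groups (SD 0.491) was larger than that of 92.0% of tested probes, where the median SD was 0.136. The second probe, by contrast, stayed between 0.94 and 1.15 on all 8 arrays, and its group means spanned 0.142. Its difference between miR-210-3p and NC was -0.12 (SE 0.08, adjusted p = 0.388), opposite in sign to that of the brightest probe. The third, dim probe read from -3.21 to -2.01 and differed by -0.24 (SE 0.34) between miR-210-3p and NC. The 3 probes therefore gave no common direction for XPO5 after miR-210-3p.

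**Figure D3:**
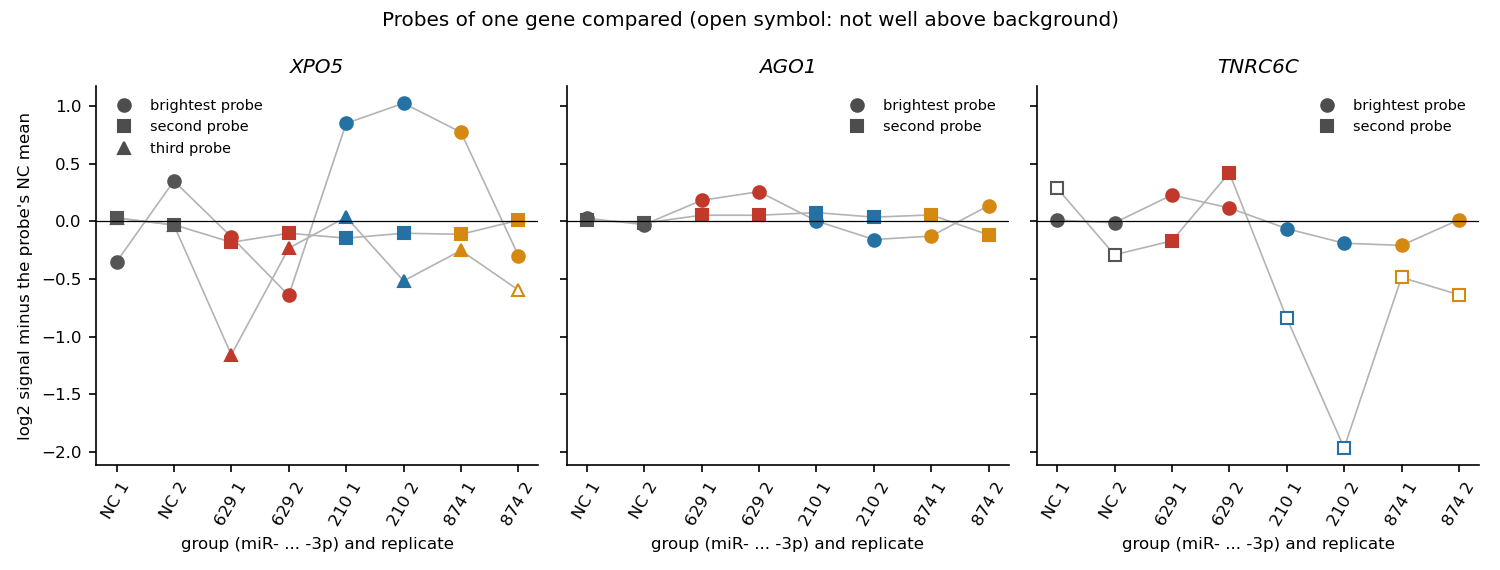
Signal of each probe of XPO5, AGO1 and TNRC6C on the 8 arrays, as the log2 difference from that probe's NC mean, with a symbol per probe, a colour per group and lines that join the values of 1 probe. Open symbols are arrays where the probe was not well above background. The brightest probe of XPO5 rises above 0.8 on both miR-210-3p arrays while the second probe stays within 0.2 of 0 throughout.

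DICER1, the enzyme that cuts hairpins to the mature length, was the gene called in the F test. It read 3.49 and 3.57 on the NC arrays, 3.29 and 3.29 after miR-629-3p, 3.13 and 3.24 after miR-210-3p, and 3.96 and 3.83 after miR-874-3p. No array of one group overlapped another group, and the order ran from miR-210-3p through miR-629-3p and NC to miR-874-3p. In single comparisons of 2 groups, the arrays did not overlap for 42.9% to 69.8% of all probes. The share of probes separated between all groups at once was not counted. From NC, DICER1 differed by -0.24 (SE 0.09, adjusted p = 0.120) after miR-629-3p, by -0.34 (SE 0.09, adjusted p = 0.0761) after miR-210-3p and by 0.36 (SE 0.09, adjusted p = 0.149) after miR-874-3p. None of these 3 was called. Nor did the lowest neighbours in that order differ by the test, since miR-629-3p stood 0.11 above miR-210-3p (SE 0.09, adjusted p = 0.419).

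DICER1 was called in the comparisons of those 2 mimics with miR-874-3p. With miR-629-3p it was 0.60 below miR-874-3p on the log2 scale (difference -0.60, SE 0.09, 1.51-fold, adjusted p = 0.0132), where 8.63% of all probes were called higher and 5.91% lower. With miR-210-3p the difference was -0.71 (SE 0.09, 1.63-fold, adjusted p = 0.0134), where 5.55% of all probes were called higher and 3.02% lower. No other probe of the set was called in either comparison. DICER1 did not stand out by the size of its change, since 72.7% of tested probes had a narrower range of group means than its 0.705. Its spread within groups was small (SD 0.0666), and 17.4% of tested probes had a smaller one. Both called comparisons set slide row 1 against row 2, so row and mimic cannot be told apart in them. Over the 4 arrays of each row, the mean of DICER1 was 3.24 in row 1 and 3.71 in row 2, and within a row neither difference (0.11 in row 1, 0.36 in row 2) was called. Without miR-629-3p replicate 1 or 2, the first call was lost (adjusted p = 0.0787 and 0.0793). Without miR-210-3p replicate 1 or 2, the second was lost (adjusted p = 0.0964 and 0.0725). The sign held under all 21 alternatives in both. Several alternatives change only the test or the filter and leave the difference as it is. The arrays compared did not overlap, so leaving 1 out could not reverse the sign either. The held sign therefore says little about how stable the calls are.

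**Figure D4:**
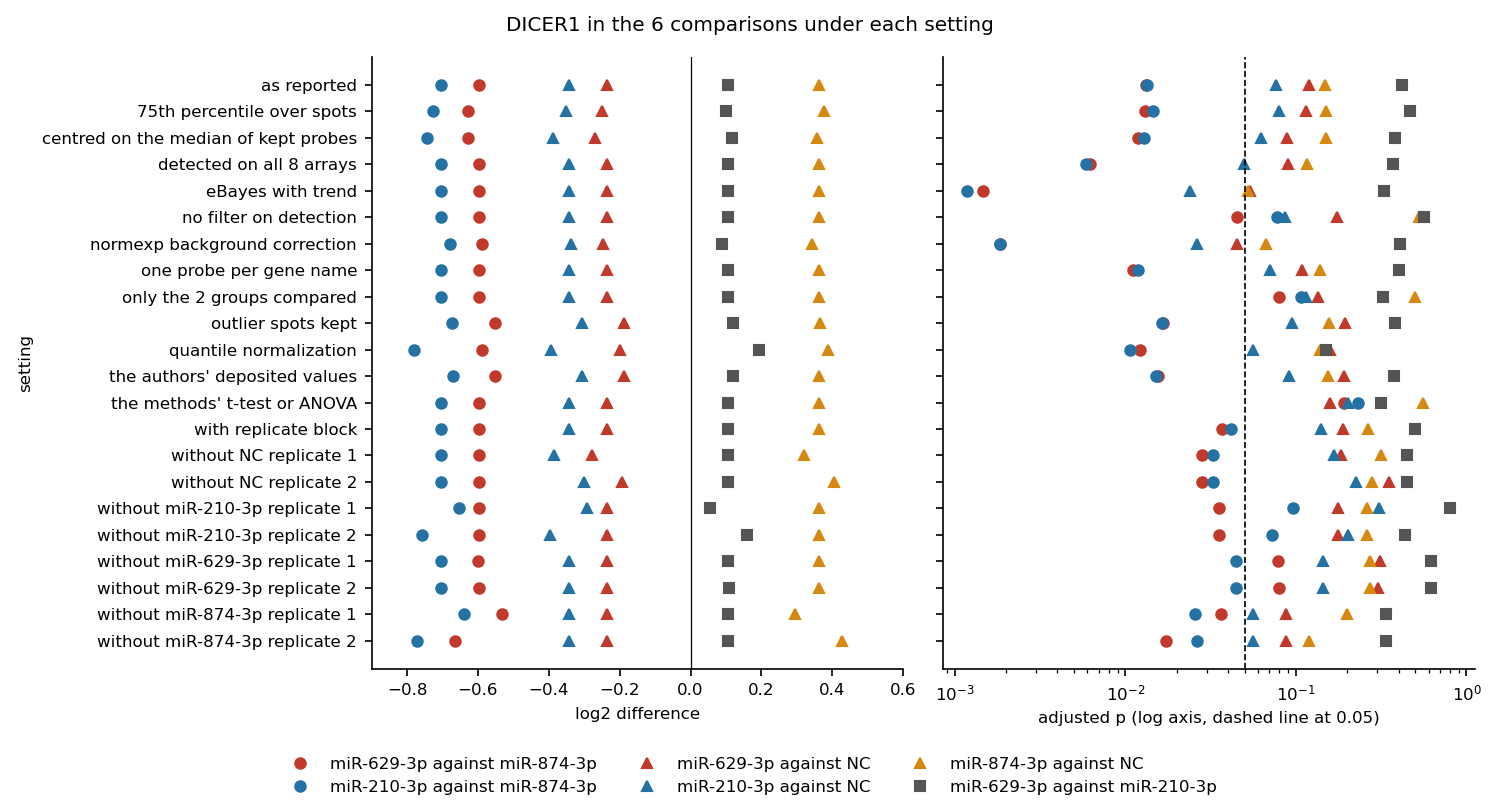
DICER1 in the 6 comparisons (symbols and colours) under the reported setting and 21 alternatives, with the log2 difference on the left and the adjusted p on a log axis on the right, where the dashed line is 0.05. Against miR-874-3p the difference ran from -0.66 to -0.53 (miR-629-3p) and from -0.78 to -0.64 (miR-210-3p). Between miR-629-3p and miR-210-3p it ran from 0.05 to 0.19. Settings that change only the test or the filter leave it as it is. The adjusted p of both comparisons with miR-874-3p crosses the line without an array of the mimic compared (miR-629-3p or miR-210-3p, respectively). Both also cross it where only 2 groups enter the fit and under the t-test of the methods. That of miR-210-3p also crosses it where no filter on detection was set.

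TARBP2, the double-stranded RNA binding partner of DICER1, read 2.38 and 2.39 with NC, 2.49 and 2.51 after miR-629-3p, 2.44 and 2.66 after miR-210-3p, and 2.51 and 2.41 after miR-874-3p. All mimic arrays lay above both NC arrays, by a mean of 0.12, 0.17 and 0.08 in the 3 groups. None was called (adjusted p = 0.461, 0.349 and 0.755). Its group means spanned 0.166, and 9.17% of tested probes spanned less.

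AGO1 and AGO2, the Argonautes of the set, had group means that spanned 0.298 and 0.254 log2 units. AGO2, the member of the family known for cutting its targets, read 4.30 and 4.30 with NC, 4.32 and 4.41 after miR-629-3p, 4.58 and 4.53 after miR-210-3p, and 4.39 and 4.22 after miR-874-3p. Both miR-210-3p arrays were the highest, 0.25 above NC (SE 0.09, adjusted p = 0.148) and 0.25 above miR-874-3p (adjusted p = 0.136). Its 10 spots measured the precision within an array, with 7 to 10 left after outlier flags and an SD between spots of 0.0296 to 0.0680. On the miR-210-3p arrays the spots ran from 4.51 to 4.64, and on the NC arrays from 4.24 to 4.39. The replicates of miR-874-3p (4.39 and 4.22) differed by more than those SDs, so repeat spots understated the spread between arrays.

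AGO1 was measured by a pair of probes. The brighter read 4.71 and 4.66 with NC, 4.87 and 4.94 after miR-629-3p, 4.69 and 4.53 after miR-210-3p, and 4.56 and 4.82 after miR-874-3p. Both miR-629-3p arrays were above all others, 0.22 above NC (SE 0.12, adjusted p = 0.245) and 0.30 above miR-210-3p (SE 0.12, adjusted p = 0.125). The other probe stayed between 0.88 and 1.07 and did not follow, with a difference of 0.00 between miR-629-3p and miR-210-3p. The paralogs AGO3 and AGO4, which load miRNAs as well, were not called against NC by their brightest probes. AGO3 differed from NC by 0.07 after miR-874-3p, by 0.15 after miR-210-3p and by 0.09 after miR-629-3p. Its second probe, however, was called 0.36 above NC after miR-629-3p (adjusted p = 0.0344). Within slide row 1, miR-629-3p minus miR-210-3p was 0.52 by that probe (adjusted p = 0.0111) and -0.06 by the brightest. The 2 probes of AGO3 thus gave different pictures. AGO4 stood 0.33 above NC after miR-629-3p (SE 0.10, adjusted p = 0.0930) and 0.44 above miR-210-3p (adjusted p = 0.0371), a call within slide row 1.

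The TNRC6 genes encode the scaffold that links Argonaute to the deadenylases. TNRC6A read 2.07 and 1.99 with NC, 2.27 and 2.33 after miR-629-3p, 2.09 and 2.15 after miR-210-3p, and 2.31 and 2.20 after miR-874-3p. The NC arrays were the lowest of the 8. It exceeded NC by 0.27 after miR-629-3p (SE 0.08, adjusted p = 0.0805), by 0.09 after miR-210-3p (adjusted p = 0.552) and by 0.23 after miR-874-3p (adjusted p = 0.275). TNRC6B was the flattest of the 10, with every array between 1.84 and 1.97. Its group means spanned 0.0616, and 0.762% of tested probes spanned less.

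TNRC6C, by its brighter probe, read 2.43 and 2.41 with NC, 2.65 and 2.54 after miR-629-3p, 2.36 and 2.23 after miR-210-3p, and 2.21 and 2.43 after miR-874-3p. Both miR-629-3p arrays were the highest, 0.17 above NC (SE 0.10, adjusted p = 0.307) and 0.30 above miR-210-3p (SE 0.10, adjusted p = 0.0990). The second probe was well above background on the 2 miR-629-3p arrays alone and entered the test through them. Its measured means were -2.86 after miR-629-3p, -2.99 with NC, -3.55 after miR-874-3p and -4.40 after miR-210-3p. The first NC array (-2.70) read above the first miR-629-3p array (-3.16), so no rise over NC is shown. No fold is given, since an array not well above background can read above one that is. Since the probe was tested only because of the miR-629-3p arrays, no p is given for it. In the other groups it was not well above background, and its level there is unknown below that.

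The comparison of miR-629-3p with miR-210-3p does not cross slide rows. It called 9.24% of all probes higher and 11.7% lower, and 0 of the 14 probes of the set. Of the 13 probes measured in both groups, 4 had an unadjusted limma p under 0.05 (36.4% of all probes) and 2 by the methods' t-test (34% of all probes). The 4 were the DROSHA probe and the brightest XPO5 probe, with negative differences (miR-629-3p minus miR-210-3p), and the brighter AGO1 and TNRC6C probes, with positive ones.

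Genes that work with the 10 were then read from 5 lists, which held 87 genes, of which 84 were tested by their brightest probe. The 3 not tested were LIN28A, LIN28B and TRIM71, which were well above background on no array. With miR-629-3p, 3 of the 84 were called higher than NC and 11 lower, beside 8.85% and 6.38% of all probes. With miR-210-3p, 0 were higher and 1 lower (3.72% and 1.92% of all probes), and after miR-874-3p 0 were called (0.19% and 0.161%). Against miR-210-3p, in the same slide row, miR-629-3p had 8 higher and 18 lower (9.24% and 11.7% of all probes). The 3 comparisons with NC share the NC arrays, and both comparisons of miR-629-3p share its arrays.

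Among 18 nuclear partners of DROSHA, 2 were called lower after miR-629-3p than with NC and 0 higher (6.38% and 8.85% of all probes). HNRNPA1, one of them, which binds some primary transcripts, differed by -0.29 (adjusted p = 0.0432). Its other probes were also lower but not called (-0.44, adjusted p = 0.200, and -0.21, adjusted p = 0.174). Within slide row 1, miR-629-3p minus miR-210-3p was -0.19 by its brightest probe (adjusted p = 0.110), not called. ADAR, the adenosine deaminase that edits double-stranded RNA, was the 1 gene of the lists called after miR-210-3p. It read 5.04 and 5.04 there, 5.64 and 5.61 with NC, 5.55 and 5.50 after miR-629-3p, and 5.31 and 5.32 after miR-874-3p (miR-210-3p minus NC -0.59, SE 0.07, adjusted p = 0.0156). The ADAR call against NC was not made in every alternative, and leaving out single arrays was among the changes that lost it. The count of nuclear partners called lower after miR-629-3p than with NC also changed when single arrays were left out. The share of all probes called in those fits is not shown for any of the lists. A change in the count of a list therefore cannot be told apart from a change over the whole array. Within slide row 1, ADAR was 0.49 higher after miR-629-3p than after miR-210-3p (adjusted p = 0.00932).

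Among 21 genes of export and of loading duplexes into Argonaute, 3 were called lower after miR-629-3p than with NC and 0 higher. The shares of all probes were 6.38% and 8.85%. The median difference was -0.28 beside 0.03 over all probes. Within slide row 1 against miR-210-3p, 9 were called lower and 1 higher (11.7% and 9.24% of all probes). The co-chaperone FKBP4 read 3.90 and 4.14 after miR-629-3p, 4.78 and 4.76 with NC, 4.83 and 4.79 after miR-210-3p, and 4.95 and 4.71 after miR-874-3p. The miR-629-3p arrays were the lowest, 0.75 below NC (difference -0.75, SE 0.12, adjusted p = 0.0171) and 0.79 below miR-210-3p (difference -0.79, adjusted p = 0.0117). MOV10, an RNA helicase found with Argonaute, differed from NC by -0.68 (SE 0.08, adjusted p = 0.00879) and from miR-210-3p by -0.43 (adjusted p = 0.0189). HSP90AB1, the chaperone that holds Argonaute open for loading, differed by -0.53 (SE 0.11, adjusted p = 0.0328) and by -0.61 (adjusted p = 0.0182). The second probes of FKBP4, MOV10 and HSP90AB1 were also called lower than NC, at -0.80, -0.64 and -0.55. The count of lower genes in the list, against NC and against miR-210-3p, changed when single arrays were left out, with the limit given for the nuclear partners. The median of the list was below 0 in each of these fits, from -0.35 to -0.16 against NC and from -0.44 to -0.23 against miR-210-3p.

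Of 16 deadenylation genes, 3 were called lower after miR-629-3p than with NC and 0 higher (6.38% and 8.85% of all probes). Their median was -0.01, beside 0.03 over all probes. PAN2, the catalytic subunit of the PAN2-PAN3 deadenylase, differed by -0.64 (SE 0.11, adjusted p = 0.0208), and CNOT10, a subunit of the CCR4-NOT complex, by -0.47 (SE 0.08, adjusted p = 0.0210). CNOT6L, a catalytic subunit of CCR4-NOT, read 1.12 and 1.14 after miR-629-3p and 1.67 and 1.81 with NC by its brightest probe (difference -0.61, SE 0.08, adjusted p = 0.0132). Its other probe was called the opposite way, 0.54 above NC (adjusted p = 0.0329), so no direction can be given for CNOT6L as a gene. The number of genes called lower in this list changed when single arrays were left out, with the same limit as for the other lists.

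Of 14 genes of decapping, repression and decay, 1 was called higher and 2 lower after miR-629-3p than with NC. Over all probes the shares were 8.85% and 6.38%. DCP2, the decapping enzyme, read 1.01 and 1.06 after miR-629-3p, 1.80 and 1.99 with NC, 2.19 and 2.13 after miR-210-3p, and 1.66 and 1.63 after miR-874-3p. The miR-629-3p arrays were the lowest, 0.86 below NC (difference -0.86, SE 0.09, adjusted p = 0.00721) and 1.13 below miR-210-3p (difference -1.13, SE 0.09, adjusted p = 0.00345). EIF4E2, a cap-binding repressor, differed from NC by -0.34 (adjusted p = 0.0487), and 1 of its 3 other tested probes was also called lower. DCP1A, an activator of DCP2, was 0.39 higher (SE 0.09, adjusted p = 0.0384) and differed from miR-210-3p by -0.00. Both counts of this list, higher and lower, changed when single arrays were left out, again without the share of all probes beside them.

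Of 15 tested genes of miRNA turnover and regulators of the machinery, 2 were called higher after miR-629-3p than with NC and 1 lower. Over all probes the shares were 8.85% and 6.38%. ZSWIM8, part of the ubiquitin ligase that removes Argonaute in target-directed miRNA decay, read 5.48 and 5.66 after miR-629-3p, 4.76 and 4.58 with NC, 4.68 and 4.48 after miR-210-3p, and 4.37 and 4.90 after miR-874-3p. The miR-629-3p arrays were the highest, 0.90 above NC (SE 0.19, adjusted p = 0.0356) and 0.99 above miR-210-3p (adjusted p = 0.0226). AJUBA, a LIM-domain protein that binds Argonaute, was 0.38 higher than NC (SE 0.09, adjusted p = 0.0445). PNPT1, a polynucleotide phosphorylase that can degrade miRNAs, differed by -0.60 (SE 0.14, adjusted p = 0.0414). Leaving out single arrays changed the counts of this list too, with the same limit. Each of the 14 genes of the lists called after miR-629-3p kept its sign in all 20 alternatives. Several of these change only the test or the filter and so cannot change a sign. None of the 14 was called in every alternative.

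**Figure D5:**
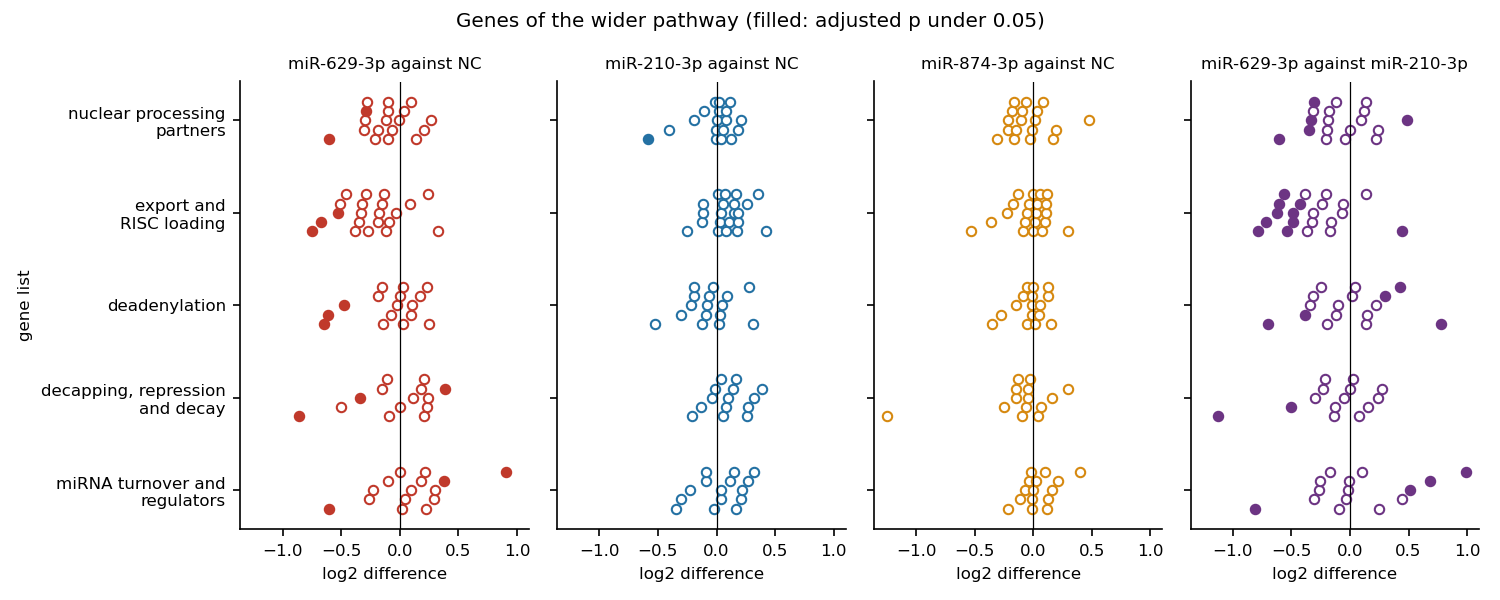
Log2 difference of each of the 84 tested genes (brightest probe) in the 5 lists, for the 3 comparisons with NC and for miR-629-3p against miR-210-3p, which lie in 1 slide row. Filled points were called at an adjusted p under 0.05. The miR-629-3p panels hold filled points in every list. Over the 84 genes more of these lie to the left of 0 than to the right. In the list of miRNA turnover and regulators more lie to the right, as they do for deadenylation against miR-210-3p. Of all tested probes, 8.85% were called higher and 6.38% lower than NC after miR-629-3p (9.24% and 11.7% against miR-210-3p). The miR-210-3p panel holds 1 filled point (ADAR) and the miR-874-3p panel none.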

How the data were processed

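The members and the gene lists were chosen with earlier results of these data known. For each array the authors deposited Agilent Feature Extraction (version 11.5.1.1) output, whose intensity values are spot signals after background subtraction and detrending, not normalized between arrays. They also deposited a table of log2 values, which after 1 constant offset per array (-0.0488 to 0.00394) lay within 0.05 of the log2 signal minus the 75th percentile for 100% of probes. It served as an alternative.

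From the intensities, spots flagged as outliers (87 to 346 of 60901 per array) were left out, log2 values were averaged over the spots of each probe, and the array's 75th percentile over gene probes was subtracted. Probes not well above background on the 2 arrays of any group were dropped. limma 3.58.1 (lmFit, then eBayes; R 4.3.3) compared the groups in 1 fit over the 8 arrays with no covariate (4 residual and 1.72 prior degrees of freedom), with Benjamini-Hochberg adjustment. The number of arrays limits the precision. The fit was tested on simulated data. Named genes are the 10 members and, from each list, up to 3 called genes with the largest change in each direction against NC in each comparison, with AGO3 and AGO4. One result among the lists is not reported here. A slide row block could not be fitted for comparisons across rows.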

Additional observations from a re-analysis of the deposited data

How the results depend on the processing

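The counts of called probes among the 14 depended on the processing in the following cases. Except at the study's threshold, given below, the share of all probes called under each setting is not shown. A change in the members' count therefore cannot be told apart from a change over the whole array. Normexp background correction gave 2 in the F test (DICER1 and TNRC6A), 2 for miR-629-3p against NC (DICER1 and TNRC6A), 1 for miR-210-3p against NC (DICER1), 4 for miR-629-3p against miR-210-3p (DROSHA, XPO5, AGO1 and TNRC6C) and 2 for miR-629-3p against miR-874-3p (DICER1 and TNRC6C). eBayes with a trend gave 1 for miR-629-3p against NC (TNRC6A) and 1 for miR-210-3p against NC (DICER1). For miR-629-3p against miR-210-3p it gave 4 (DROSHA, XPO5 and both TNRC6C probes). The second TNRC6C probe entered through the miR-629-3p arrays and was not well above background with miR-210-3p, so its call carries no weight. Quantile normalization gave 1 for miR-629-3p against NC (TNRC6A). Requiring detection on all 8 arrays left 12 probes and gave 1 for miR-210-3p against NC and 2 for miR-629-3p against miR-210-3p. Fitting only the 2 groups compared gave 2 for miR-629-3p against miR-210-3p and 0 for both comparisons with miR-874-3p, as did the t-test of the methods for those with miR-874-3p (0 and 0). With no filter on detection, miR-210-3p against miR-874-3p had 0. The study's threshold, an unadjusted p under 0.05 and 2-fold, was applied here to the limma p. The study's methods name Student's t-test for such comparisons, so only the cutoffs are the same. The counts were 1 for miR-210-3p against NC (3.2% of all probes), 2 for miR-629-3p against miR-210-3p (5.57%), and 0 for both comparisons with miR-874-3p (5.03% and 3.76%). The 1 and one of the 2 are the second probe of TNRC6C, whose fold is not measurable there. Without it they were 0 and 1 (XPO5). With 1 array left out, where the spread of the single array left in a group is taken from the other groups, the F test called 0 to 1, miR-629-3p against miR-874-3p 0 to 1, miR-210-3p against miR-874-3p 0 to 1, miR-629-3p against miR-210-3p 0 to 2, and the 3 comparisons with NC 0. Both called DICER1 differences kept their sign under all 21 alternatives, many of which could not have changed it, as said above. The 75th percentile over spots, the extra alternatives for DICER1 between mimics and the settings of the lists were added after the data were seen. The cause of these changes was not tested.

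Replicate numbers are shared between groups, but same-numbered arrays did not deviate together (correlations of -0.10 to 0.04 over 6 pairs of groups), so they share only a number. With the replicate block, 1 probe was called in the F test, 1 in each comparison with miR-874-3p (adjusted p = 0.0368 and 0.0419 for DICER1) and 0 in the other 4, as without the block. The slide row could not be fitted as a block where a comparison crosses rows. Signal over background limits the second probe of TNRC6C and the third of XPO5.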
